A study of Mus musculus with 10 samples.

Results

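Oxidative phosphorylation (OXPHOS) subunits are described here in hematopoietic stem cells (HSCs) of 18-month-old mice with and without the aryl hydrocarbon receptor (AHR). Members were chosen by gene symbol alone: Ndufa, Ndufb, Ndufc, Ndufs or Ndufv followed by a number, Sdha to Sdhd, and symbols that begin with Uqcr, Cyc1, Cox4i, Cox5 to Cox8 or Atp5. This gave 81 of 22180 genes that had at least 1 probe set naming no other gene, namely 33 of complex I, 4 of complex II, 9 of complex III, 17 of complex IV and 18 of complex V. Uqcrh-ps1 and Atp5c1-ps, which the annotation names as pseudogenes, are among them. Uqcr10, Ndufs6, Ndufb2, Ndufb4 and Cox6c were read only together with other genes and were left out.

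The OXPHOS system is the set of protein complexes in the inner mitochondrial membrane that turns nutrients into ATP. Complexes I and II pass electrons from NADH and succinate to coenzyme Q, complex III passes them to cytochrome c, complex IV passes them to oxygen, and complex V, the ATP synthase, uses the proton gradient that complexes I, III and IV build. Resting HSCs are known for their reliance on glycolysis, and respiration increases when they divide and differentiate. Most subunits are encoded in the nucleus, and a small set that includes catalytic cores of complexes I, III and IV is encoded in mitochondrial DNA.

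The samples were 5 AHR-KO and 5 WT mice of strain C57BL/6J, all 18 months old. The knockout is global, so it also reaches the marrow around the HSCs, and the study's methods name the line AHR tm3.1Bra. Lineage-depleted bone marrow was sorted for the SLAM+ fraction (CD48- CD150+), and the RNA of each mouse was amplified and hybridised to an Affymetrix Mouse Gene 2.0 ST array of its own. Values are linear signals, compared as log2(signal + 16) with limma, and a fold change below is the difference AHR-KO minus WT on that log2 scale, which understates changes of dim genes. Each array had the same median signal, 24.65, and the same maximum, 38560, because the deposited signals share their quantiles, so only changes relative to other genes can be seen.

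The signal of Ahr was 53.8, 19.9, 38.3, 60.9 and 75.6 in AHR-KO replicates 1 to 5, against 93.9, 40.0, 37.6, 34.6 and 9.92 in WT replicates 1 to 5, and it does not tell the groups apart. Which part of the gene the allele lacks is not given in the study's methods, so the Ahr probe set does not check the labels. Of 24 HSC identity genes with a probe set, 22 were above the array median in all 10 arrays, among them Slamf1, Kit, Procr and Mecom, and Fgd5 and Cdkn1c were not. Cd48, which the sort selects against, read 71.6 to 678 over the 10 arrays. The study's abstract also gives its sorted cells as CD34-, and Cd34 read 1076 to 2125. Of 6 genes of cells outside the gate, 3 were above the array median in all 10 arrays, namely Cd34, Cd48 and Fcgr3 (69.1 to 465). Flt3 and Fcgr2b were above it in 9 arrays and Il7r in 3. The first principal component over all genes, with 30.6% of the variance, separated 4 arrays (WT replicates 1 and 5, AHR-KO replicates 1 and 2) from a larger set of 6. The summed signal of 18 neutrophil genes was 4546 to 31288 in AHR-KO arrays and 6746 to 17483 in WT arrays, with 8 of the 18 above the array median in every array. The summed signal of 24 HSC identity genes was 4717 to 10409 in AHR-KO arrays and 6552 to 10785 in WT arrays. Of the remaining marker lists, 4 of 13 mast cell and basophil genes and 2 of 15 stroma genes had an unadjusted p under 0.05, against 3.74% of all genes. The difference AHR-KO minus WT in log2(signal + 16) was below 0 in 21 of 24 HSC identity genes (median -0.239) and above 0 in 14 of 15 erythroid genes (median 0.489) and 22 of 27 cell cycle genes (median 0.166), with 0 genes of these 3 lists at an unadjusted p under 0.05. The summed signal of the erythroid genes, of which 9 were above the array median in every array, was 2928 to 10103 in AHR-KO arrays and 2599.5 to 9003 in WT arrays. The summed signal of the mast cell and basophil genes, of which 6 were above the array median in every array, was 843 to 3199.6 in AHR-KO arrays and 1987 to 4771 in WT arrays. None of these genes was at 0 in all 10 arrays. The part of these cells in the results below was not tested. In each of these bulk samples, fewer cells of a type and less RNA per cell cannot be told apart.

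Most OXPHOS subunits had a signal above the array median in these samples of old HSCs. Of the 81 members, 72 had a signal above the array median in all 10 arrays. That median is over all 41345 probe sets, of which 16004 have no symbol, and a signal above it is not a detection call. The share of all genes past this rule is not given. By mean level, 72 members lay above the median of the genes tested, as did 11090 of 22180 genes. Another 5 were above it in some arrays, namely Cox6a2 and Cox7a1 in 8 arrays, Cox8c and Ndufa4l2 in 4 and Atp5g1 in 1. Cox7b2, Cox8b, Uqcrh-ps1 and Atp5c1-ps were below it in every array.

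No subunit differed between AHR-KO and WT past the adjusted threshold. After Benjamini-Hochberg adjustment over all 22180 genes in limma, 0 members passed an adjusted p of 0.05, as did 0% of all genes, and the smallest adjusted p of a member was 0.998. At an unadjusted p under 0.05, 1 member was called, Cox6a2, which was lower in AHR-KO, against 3.74% of all genes in either direction, 1.81% higher and 1.93% lower in AHR-KO. The study's limit is 1.5-fold with P under 0.05, taken here as unadjusted although its methods speak of adjustment for multiple comparisons, and 0 members reached both, against 0.523% of all genes, 0.18% higher and 0.343% lower. The groups were free of overlap in 0 of the 81 members, against 0.681% of all genes. By the exact permutation test of the 10 arrays, 4 members had p under 0.05 (Ndufa11, Ndufa13, Atp5c1 and Atp5j), against 4.19% of all genes. That share is near the background.

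The members lay on either side of 0. The fold change was above 0 in 37 members and below 0 in 44, against 51.1% of all genes above 0, and its median was -0.009, beside 0.004 for all genes. It was smaller than 0.1 in size in 47 members (58.0%), against 44.8% of all genes and 39.8% of genes above the median level. The 95% interval of the fold change lay within 1.5-fold either way (0.58 on the log2 scale) in 73 of 81 members, against 69.4% of all genes. Among members above the median level it did so in 65 of 72, against 58.5% of genes above that level. The median SD within a group was 0.18 for members and 0.30 for genes above the median level, so the narrow intervals go with a small spread between arrays. With 1 array per mouse, the spread between mice and that of the measurement cannot be told apart. The genes above the median level were not matched further to the members for signal.

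**Figure D1:**
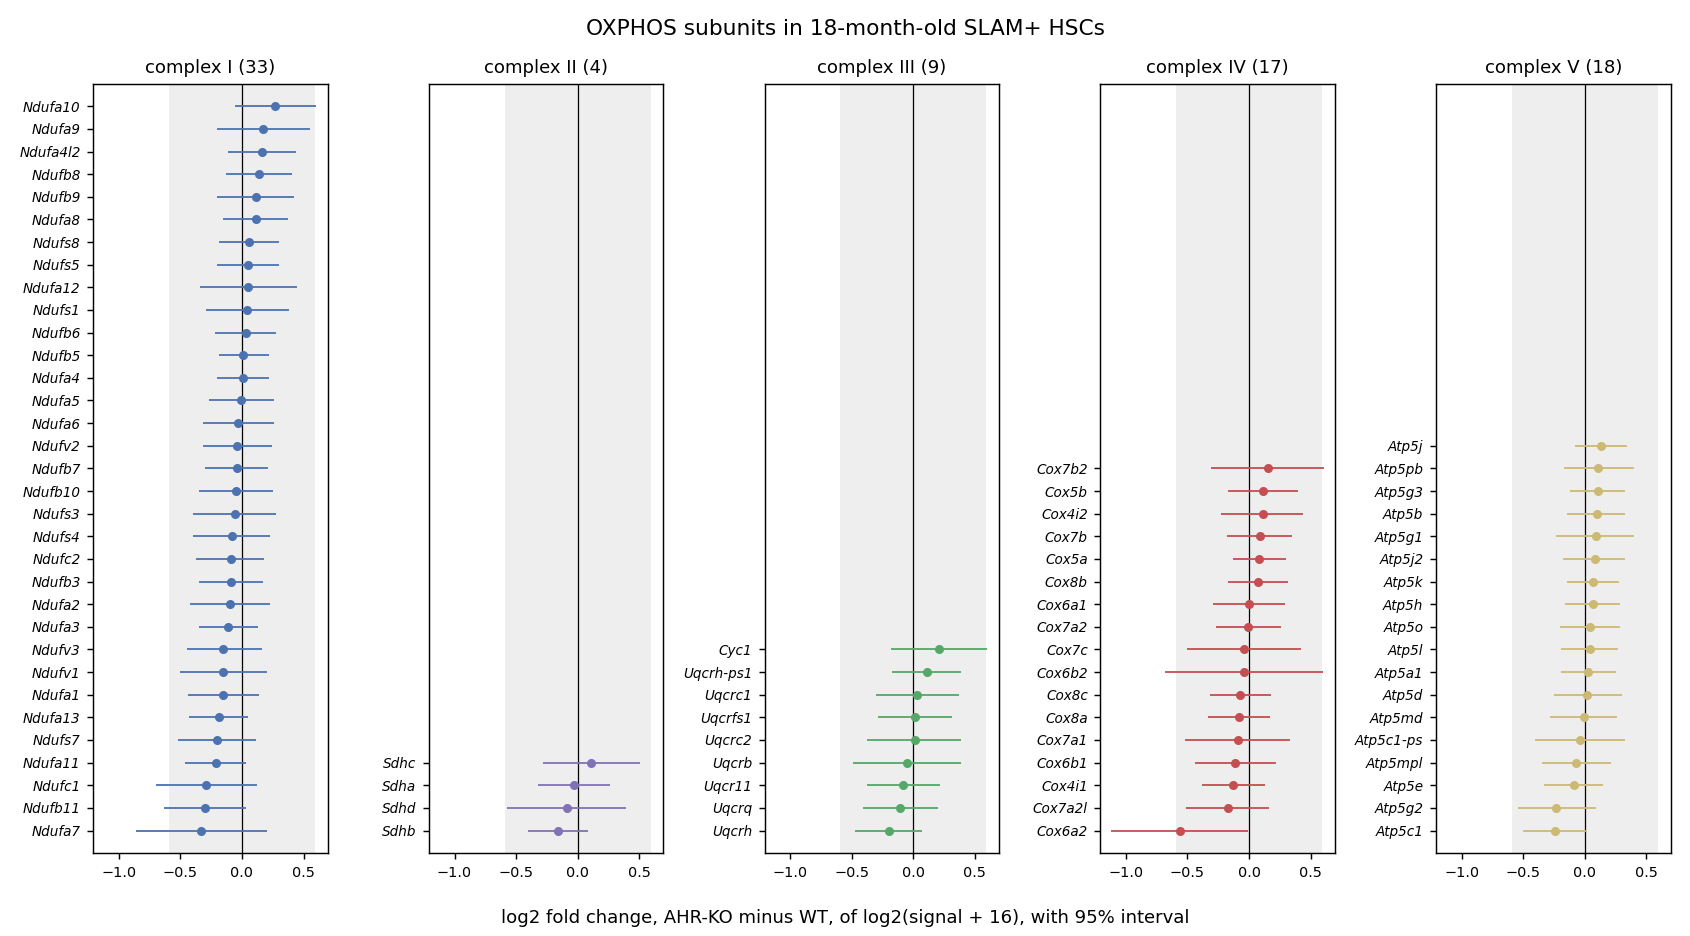
Fold change of each of the 81 subunits, by complex, as a point with its 95% interval; the x axis is AHR-KO minus WT in log2(signal + 16), and the grey band spans 1.5-fold either way. The interval leaves the band in 8 subunits and excludes 0 only in Cox6a2 (-1.12 to -0.01).

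The 8 members whose interval reached past 1.5-fold were Ndufa7, Ndufa10, Ndufb11, Ndufc1, Cyc1, Cox6a2, Cox6b2 and Cox7b2. For these genes a difference of that size was not excluded at 5 arrays per group. The lowest bound was -1.12, in Cox6a2, and the highest was 0.61, in Cox7b2.

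Complex I takes electrons from NADH through a matrix arm and pumps protons through a membrane arm. Of its 33 members, 13 had a fold change above 0 and 20 below, with a median of -0.043, and 0 passed an unadjusted p of 0.05. The 14 matrix arm members had a median of -0.052, and the 17 membrane arm members had a median of -0.048.

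Ndufa4, named as a complex I gene although its protein is now placed in complex IV, was taken for its high mean signal. It read 1994, 2152, 2109, 1977 and 2209 in AHR-KO replicates 1 to 5, against 2263, 1936, 2070.3, 2028 and 2089 in WT replicates 1 to 5, a narrow range in which the groups overlapped throughout, with a fold change of 0.01 (SE 0.10). Ndufa4l2, its relative that is induced by low oxygen, was dim and read 19.0, 27.3, 31.2, 20.4 and 26.7 in AHR-KO replicates 1 to 5, against 19.2, 22.6, 26.3, 19.4 and 15.1 in WT replicates 1 to 5. Its highest values were in AHR-KO replicates 2, 3 and 5 and WT replicate 3, and the fold change was 0.16 (SE 0.13, unadjusted p = 0.22 in limma).

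Ndufb11, a membrane arm subunit, had the smallest p of the complex. Its signal was 69.6, 82.1, 69.6, 106 and 82.9 in AHR-KO replicates 1 to 5, against 136, 113, 105, 76.8 and 94.8 in WT replicates 1 to 5. AHR-KO replicate 4 lay among the WT arrays and WT replicate 4 among the AHR-KO arrays. The fold change was -0.30 (SE 0.15, unadjusted p = 0.0747 and adjusted p = 0.998 in limma, exact permutation p = 0.111). Leaving out AHR-KO replicate 4 or WT replicate 4 took the unadjusted p to 0.0293 or 0.0228, and leaving out WT replicate 1 took it to 0.184, with a fold change of -0.21. Within the larger set of 6 arrays Ndufb11 had -0.16, and within the other 4 it had -0.50.

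Ndufa11, a membrane arm subunit that helps hold the complex together, had a signal of 798, 1115, 969, 937 and 864 in AHR-KO replicates 1 to 5, against 1043, 1056, 1072, 1059 and 1173 in WT replicates 1 to 5. AHR-KO replicates 1, 3, 4 and 5 were below every WT array and replicate 2 was not. On the log2 scale the difference was -0.21 (SE 0.11, unadjusted p = 0.0847 in limma, exact permutation p = 0.0397), and a second, dimmer Ndufa11 probe set had -0.33. The unadjusted p was 0.0261 without AHR-KO replicate 2 and over 0.05 without any other array. Ndufa13, also known as a cell death regulator (Grim19) and named here after its values were seen, was close to it, with a fold change of -0.19 (exact permutation p = 0.0476).

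Ndufa10, a membrane arm subunit, had a fold change in the other direction. Its signal was 449, 601, 657, 636 and 728 in AHR-KO replicates 1 to 5, against 545, 411, 484, 617 and 468 in WT replicates 1 to 5. AHR-KO replicate 1 lay among the lower WT arrays and WT replicate 4 among the AHR-KO arrays. The groups differed by a fold change of 0.27 (SE 0.15, unadjusted p = 0.0999 in limma, exact permutation p = 0.119), with 0.42 within the 6 arrays of the larger set and 0.04 within the other 4. Without AHR-KO replicate 1 or WT replicate 4 it was 0.38 or 0.34, each with an unadjusted p under 0.05.

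Of the core redox subunits of the matrix arm, Ndufs1 and Ndufv1 are given in full. Ndufs1, which carries iron-sulfur clusters, read 137, 109, 115, 89.6 and 179 in AHR-KO replicates 1 to 5, against 129.7, 111, 111, 119 and 125 in WT replicates 1 to 5. The WT arrays lay inside the AHR-KO range, and the fold change was 0.04 (SE 0.15). Ndufv1, which binds NADH, read 278, 244, 345, 384 and 308 in AHR-KO replicates 1 to 5, against 431, 325, 385, 256 and 343 in WT replicates 1 to 5. It was highest in WT replicate 1 and lowest in AHR-KO replicate 2, with a fold change of -0.15 (SE 0.16). Ndufa7, the complex I member with the largest SD over the 10 arrays, read 476, 711, 432, 481 and 259 in AHR-KO replicates 1 to 5, against 871, 470.0, 563, 489 and 528 in WT replicates 1 to 5. Its highest value was in WT replicate 1 and its lowest in AHR-KO replicate 5, and its fold change was -0.33 (SE 0.24), with -0.18 without WT replicate 1 and -0.14 without AHR-KO replicate 5.

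Complex II, succinate dehydrogenase, is also an enzyme of the TCA cycle and is built from nuclear genes alone. Its fold changes were -0.03 for Sdha, the flavoprotein, -0.16 for Sdhb, the iron-sulfur protein, 0.11 for Sdhc and -0.09 for Sdhd, the membrane anchors, with a median of -0.057. Sdha read 715, 640.3, 572, 474 and 571 in AHR-KO replicates 1 to 5, against 519, 596, 566, 638 and 704 in WT replicates 1 to 5. It was highest in AHR-KO replicate 1 and lowest in AHR-KO replicate 4, with the WT arrays in between. Sdhb read 356, 423, 454, 423 and 454 in AHR-KO replicates 1 to 5, against 466, 463, 506, 413 and 513 in WT replicates 1 to 5. WT replicate 4 lay among the AHR-KO arrays, and all other WT arrays were above all AHR-KO arrays (SE 0.11, unadjusted p = 0.177 in limma, exact permutation p = 0.0873). Without AHR-KO replicate 1 the fold change of Sdhb was -0.10, within the 6 arrays it was -0.05 and within the other 4 it was -0.32.

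Sdhc read 582, 508, 398, 482 and 405 in AHR-KO replicates 1 to 5, against 584, 431, 461, 465 and 282 in WT replicates 1 to 5. Its highest and lowest values were both in WT arrays, replicates 1 and 5. Sdhd had the largest SD of complex II, and it read 641, 808, 429, 414 and 372 in AHR-KO replicates 1 to 5, against 634, 661, 563, 393 and 504 in WT replicates 1 to 5. AHR-KO replicates 1 and 2 were high, and the sign of the difference was not the same in both array sets, with -0.37 within the 6 arrays and 0.34 within the other 4. The median of complex II was accordingly 0.249 within those 4 arrays.

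Complex III carries electrons from coenzyme Q to cytochrome c. Of its 9 members 5 had a fold change above 0 and 4 below, with a median of 0.006. Uqcrh, the hinge protein that assists the transfer to cytochrome c, had the smallest p. It read 1232, 1298, 1360.2, 1466 and 1001 in AHR-KO replicates 1 to 5, against 1538, 1411, 1318, 1405 and 1605 in WT replicates 1 to 5. AHR-KO replicate 5 was the lowest array, and the groups overlapped between 1318 and 1466. Between the groups the fold change was -0.20 (SE 0.12, unadjusted p = 0.128 in limma, exact permutation p = 0.0794), and without AHR-KO replicate 5 it was -0.12. Within the 6 arrays Uqcrh had -0.13, and within the other 4 it had -0.31.

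Cyc1, the cytochrome c1 subunit, read 421, 354, 369, 306 and 561 in AHR-KO replicates 1 to 5, against 349.6, 396, 341, 240.5 and 393 in WT replicates 1 to 5. Its highest value was in AHR-KO replicate 5 and its lowest in WT replicate 4, and the fold change was 0.21 (SE 0.18, unadjusted p = 0.268 in limma). It was 0.08 without that AHR-KO array and 0.09 without that WT array. Uqcrfs1, the Rieske iron-sulfur protein, read 645, 528, 461, 508 and 495 in AHR-KO replicates 1 to 5, against 671, 509, 548, 475 and 430.1 in WT replicates 1 to 5. The AHR-KO arrays lay inside the WT range, with a fold change of 0.01 (SE 0.14). The core proteins Uqcrc1 and Uqcrc2 had 0.03 and 0.01, and Uqcrq, a small accessory subunit, had -0.11.

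Uqcr11, another small accessory subunit, was taken for its high mean signal and read 1836, 1402, 1458, 1395 and 1116 in AHR-KO replicates 1 to 5, against 1773, 1383, 1506, 1534 and 1383 in WT replicates 1 to 5. It was highest in AHR-KO replicate 1 and lowest in AHR-KO replicate 5, with a fold change of -0.08 (SE 0.14). Uqcrb, a subunit near the coenzyme Q site, had the largest SD and read 910.0, 1263, 761, 758 and 575 in AHR-KO replicates 1 to 5, against 1138, 839, 922, 744 and 697 in WT replicates 1 to 5. Again both extremes were in AHR-KO arrays, replicates 2 and 5, and the fold change was -0.05 (SE 0.20). The pseudogene Uqcrh-ps1, below the array median throughout, read 11.3, 10.5, 7.97, 11.6 and 13.6 in AHR-KO replicates 1 to 5, against 14.4, 9.78, 11.0, 5.82 and 4.64 in WT replicates 1 to 5, and its fold change was 0.11 (SE 0.13).

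Complex IV, cytochrome c oxidase, has several subunits that exist as a widespread form and as a form known from particular tissues. Of its 17 members 6 had a fold change above 0 and 11 below, with a median of -0.041. The 10 widespread members had fold changes of -0.17 to 0.11. Cox7a2l was the lowest of them and read 517, 537, 453, 460.4 and 323 in AHR-KO replicates 1 to 5, against 570.4, 406, 486, 578 and 536 in WT replicates 1 to 5. AHR-KO replicate 5 was the lowest array, and the other AHR-KO arrays lay inside the WT range (SE 0.15, unadjusted p = 0.281 in limma).

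Cox4i1, the common form of subunit 4, read 1783, 1789, 1667, 1804 and 1439 in AHR-KO replicates 1 to 5, against 1940.1, 1519.8, 1889, 2020.2 and 1901 in WT replicates 1 to 5. AHR-KO replicate 5 and WT replicate 2 were the 2 lowest arrays, and the fold change was -0.13 (SE 0.12). Cox5a, another nuclear subunit of the complex, read 1419, 1428, 1605, 1578 and 1497 in AHR-KO replicates 1 to 5, against 1322, 1506, 1494, 1337 and 1449 in WT replicates 1 to 5. AHR-KO replicates 3 and 4 were the 2 highest arrays, and the fold change was 0.08 (SE 0.10). Cox6a1, the widespread form of subunit 6a, read 2477, 2892, 2166, 2241 and 2156 in AHR-KO replicates 1 to 5, against 2933, 2358, 2311, 2409 and 1951 in WT replicates 1 to 5. WT arrays held both extremes, in replicates 1 and 5, and the unadjusted p was 0.996 in limma.

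Cox6a2, the form of subunit 6a known from heart and skeletal muscle, was the only member with an unadjusted p under 0.05. It read 22.6, 24.1, 54.1, 53.1 and 44.9 in AHR-KO replicates 1 to 5, against 71.8, 66.0, 94.9, 73.7 and 28.7 in WT replicates 1 to 5. All 5 AHR-KO arrays were below WT replicates 1 to 4, and WT replicate 5 was below AHR-KO replicates 3 to 5. The gene was dim, and the 3 lowest values were in 3 of the 4 arrays that the principal component set apart. Its fold change was -0.56 (SE 0.25, unadjusted p = 0.0478 and adjusted p = 0.998 in limma), and the exact permutation p was 0.103. The call was lost with a pseudocount of 1 (unadjusted p = 0.064) or 64 (unadjusted p = 0.0515), by the methods' t-test on log2 values (unadjusted p = 0.0893) or linear signals (unadjusted p = 0.0654), and without any 1 of AHR-KO replicates 1, 2 and 5 and WT replicates 1 to 4. Within the 6 arrays of the larger set the fold change was -0.49 (unadjusted p = 0.0101 in limma), and within the other 4 it was -0.67 (unadjusted p = 0.121).

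The other tissue-restricted forms were not uniform in old HSCs. Cox4i2, known from lung, read 369.7, 397, 563, 289.8 and 355 in AHR-KO replicates 1 to 5, against 352, 353, 363, 337 and 381 in WT replicates 1 to 5. It was above the array median in all arrays, and the WT arrays were close together while AHR-KO replicate 3 was high. Cox6b2, known from testis, was also above the median in all arrays and read 637, 439, 289, 293 and 165 in AHR-KO replicates 1 to 5, against 467, 256, 342, 361 and 315 in WT replicates 1 to 5. AHR-KO replicates 1 and 5 were the highest and the lowest of the 10 arrays, and the fold change was -0.04 (SE 0.29).

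The remaining restricted forms were dim. Cox7a1, known from muscle, read 24.4, 25.3, 42.9, 29.1 and 36.3 in AHR-KO replicates 1 to 5, against 19.5, 30.6, 43.8, 27.5 and 58.6 in WT replicates 1 to 5. Both its extremes were in WT arrays, replicates 1 and 5. Cox8c, known from testis, read 23.8, 24.3, 18.7, 23.4 and 24.7 in AHR-KO replicates 1 to 5, against 19.9, 27.4, 25.2, 21.1 and 31.9 in WT replicates 1 to 5. Again WT replicate 5 was the highest, and AHR-KO replicate 3 was the lowest. Cox7b2, known from testis, read 8.76, 0.98, 1.34, 22.1 and 1.64 in AHR-KO replicates 1 to 5, against 6.15, 5.05, 2.65, 2.98 and 1.40 in WT replicates 1 to 5, and Cox8b, known from muscle, read 0.00, 1.44, 1.51, 5.34 and 3.32 in AHR-KO replicates 1 to 5, against 0.00, 1.59, 0.17, 3.48 and 1.66 in WT replicates 1 to 5. Both stayed below the array median, and AHR-KO replicate 4 was the highest array in each.

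The widespread partners of these genes were read in every array. Cox6b1 read 1859, 1944, 1682, 1581 and 1162 in AHR-KO replicates 1 to 5, against 2080.2, 1799, 1770.1, 1564 and 1581 in WT replicates 1 to 5. It was lowest in AHR-KO replicate 5 and highest in WT replicate 1. Cox7a2 read 1254, 1383, 1329, 1131 and 984 in AHR-KO replicates 1 to 5, against 1284, 1178, 1338, 1069.7 and 1225 in WT replicates 1 to 5. Here too AHR-KO replicate 5 was the lowest, and AHR-KO replicate 2 was the highest. Cox7b read 1182, 1358, 1074, 1069 and 1032 in AHR-KO replicates 1 to 5, against 1196, 969, 1028, 952 and 1240.2 in WT replicates 1 to 5, highest in AHR-KO replicate 2, and Cox8a read 2226, 2235, 2263, 2248 and 1856 in AHR-KO replicates 1 to 5, against 2579, 2137, 2229.9, 1988 and 2526 in WT replicates 1 to 5, lowest in AHR-KO replicate 5. The fold changes of these 4 genes were -0.11, -0.01, 0.09 and -0.08.

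**Figure D2:**
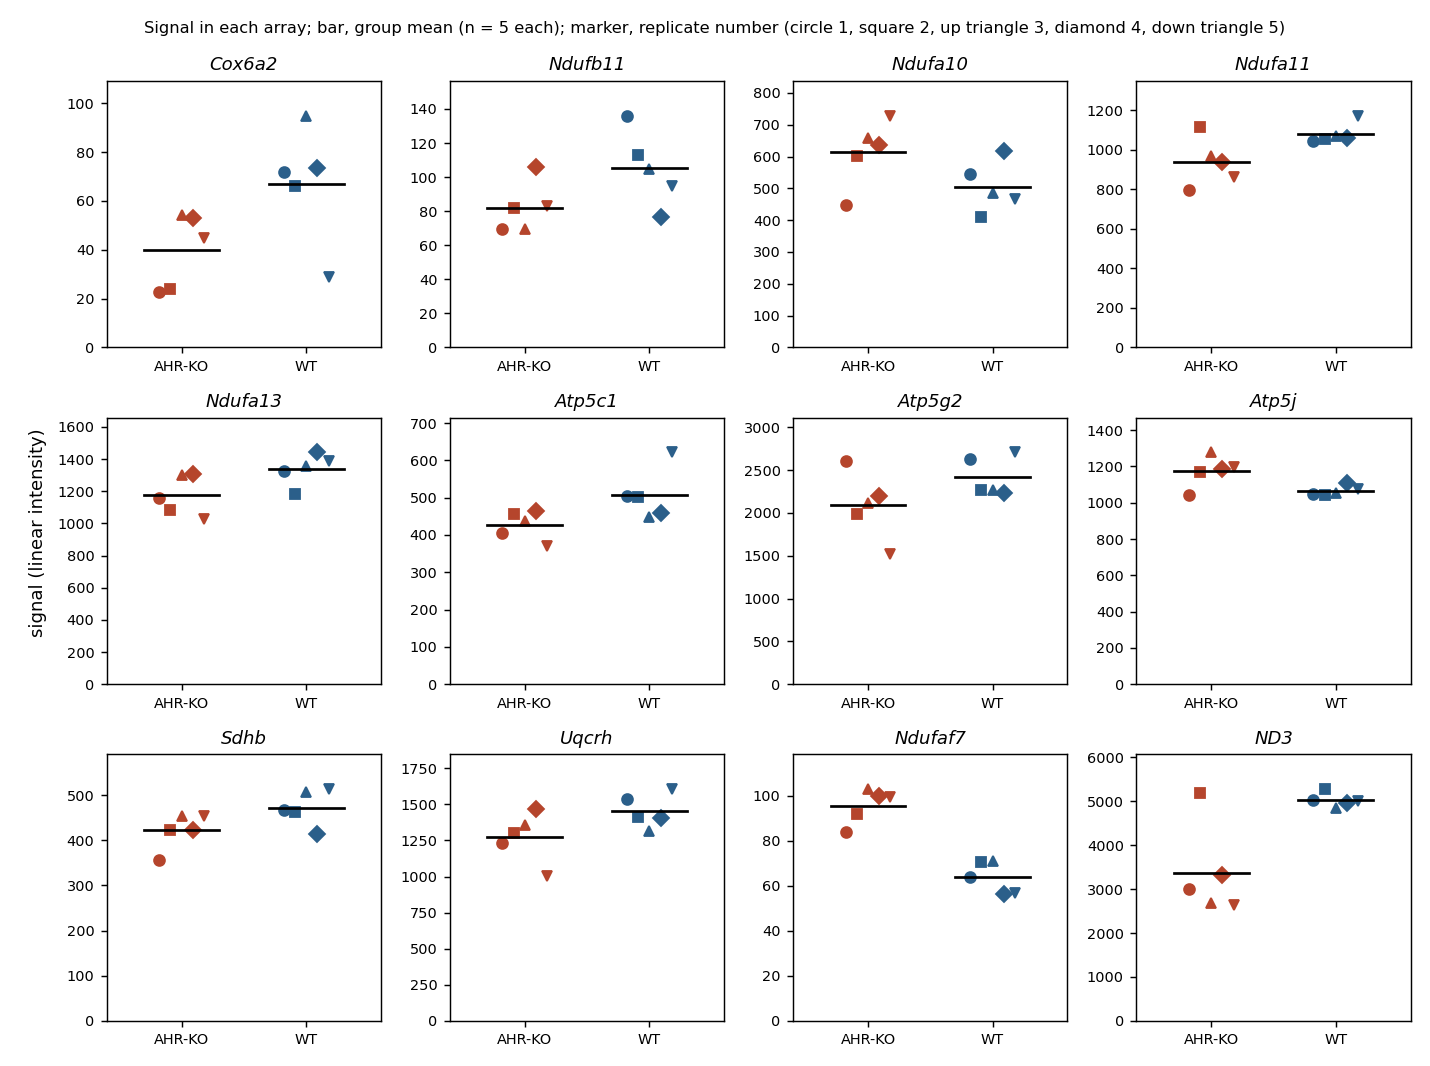
Linear signal (y axis, from 0) of 10 subunits, the assembly factor gene Ndufaf7 and the mitochondrial gene ND3 in each of 5 AHR-KO arrays (left) and 5 WT arrays (right), with the group mean as a bar and the replicate number as the marker shape. The groups overlap in each of the 10 subunits and in ND3, and they do not overlap in Ndufaf7.

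Complex V, the ATP synthase, couples the return of protons through a membrane rotor to ATP synthesis in its F1 head. Of its 18 members 12 had a fold change above 0 and 6 below, with a median of 0.041. Every interval in this complex lay within 1.5-fold. The 9 stalk and membrane members had a median of 0.066. The pseudogene Atp5c1-ps, below the array median throughout, read 3.24, 11.4, 6.09, 4.93 and 5.93 in AHR-KO replicates 1 to 5, against 1.72, 4.50, 5.30, 7.52 and 17.4 in WT replicates 1 to 5, with a fold change of -0.04.

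Atp5a1, the alpha subunit of the head, read 2199, 2114, 2179, 2080.2 and 1916 in AHR-KO replicates 1 to 5, against 2316, 2156, 1933, 1991 and 1904 in WT replicates 1 to 5. The AHR-KO arrays lay inside the WT range, with a fold change of 0.03 (SE 0.10). Atp5b, the catalytic beta subunit, read 2268, 2125, 2377, 2089 and 2278 in AHR-KO replicates 1 to 5, against 2348, 2278, 2034, 1889 and 1895 in WT replicates 1 to 5. WT replicates 3, 4 and 5 were the 3 lowest arrays, and the fold change was 0.10 (SE 0.11). Atp5e, the epsilon subunit, was taken for its high mean signal and read 3987, 3542, 4041, 4067 and 3200.5 in AHR-KO replicates 1 to 5, against 4292, 3594, 4100.2, 4116 and 3839.7 in WT replicates 1 to 5. AHR-KO replicate 5 was the lowest array and WT replicate 1 the highest, and the fold change was -0.09 (SE 0.11).

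Atp5c1, the gamma subunit and central shaft of the F1 head, read 405, 456, 438, 463 and 369.5 in AHR-KO replicates 1 to 5, against 504, 503, 447, 459 and 621 in WT replicates 1 to 5. WT replicates 3 and 4 lay within the AHR-KO range, and WT replicate 5 was the highest array. This gave a fold change of -0.24 (SE 0.12, unadjusted p = 0.0722 in limma, exact permutation p = 0.0397). It was -0.16 without WT replicate 5, -0.15 within the 6 arrays and -0.37 within the other 4.

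Atp5j, coupling factor 6 of the peripheral stalk, read 1040.5, 1169, 1277, 1188 and 1197 in AHR-KO replicates 1 to 5, against 1049, 1041, 1055, 1109 and 1078 in WT replicates 1 to 5. AHR-KO replicate 1 was the lowest of the 10 arrays and the other AHR-KO arrays were above all WT arrays. On the log2 scale the difference was 0.13 (SE 0.10, unadjusted p = 0.19 in limma, exact permutation p = 0.0476). The c subunit of the rotor is made from 3 genes that encode the same mature protein. Atp5g2 read 2610.2, 1991, 2121, 2199 and 1524 in AHR-KO replicates 1 to 5, against 2628, 2268, 2268, 2235 and 2705 in WT replicates 1 to 5. It was lowest in AHR-KO replicate 5 and highest in WT replicate 5, with a fold change of -0.23 (SE 0.14, unadjusted p = 0.14 in limma), and it ranged from -0.31 without AHR-KO replicate 1, where the unadjusted p was under 0.05, to -0.12 without AHR-KO replicate 5 (unadjusted p = 0.362). Atp5g3 read 1944, 1936, 1724, 1779 and 1863 in AHR-KO replicates 1 to 5, against 1898, 1828, 1721, 1532 and 1618 in WT replicates 1 to 5. WT replicates 4 and 5 were the 2 lowest arrays, and the fold change was 0.11 (SE 0.10). Atp5g1, above the array median in 1 array, read 25.3, 14.7, 18.8, 13.7 and 17.4 in AHR-KO replicates 1 to 5, against 23.2, 18.8, 11.3, 10.0 and 17.4 in WT replicates 1 to 5. It was lowest in WT replicates 3 and 4, with a fold change of 0.09 (SE 0.14). The remaining members, which are not described one by one, are plotted with their intervals among the fold changes of all 81 subunits.

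As a whole, the subunits varied more between single arrays than between the groups. As a score, the mean deviation of the 81 members from their own means over the 10 arrays was 0.02, 0.03, 0.01, -0.01 and -0.12 in AHR-KO replicates 1 to 5, against 0.13, -0.03, 0.03, -0.05 and -0.01 in WT replicates 1 to 5. AHR-KO replicate 5 was the lowest array in 26 of the 81 members, and WT replicate 1 was the highest in 20. The difference between the group means of the score was -0.027, with SDs of 0.06 in AHR-KO and 0.07 in WT. Without AHR-KO replicate 4 the median fold change of the members was 0.001. Without AHR-KO replicate 5 the median fold change of the members was 0.020, and without WT replicate 1 it was 0.023.

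**Figure D3:**
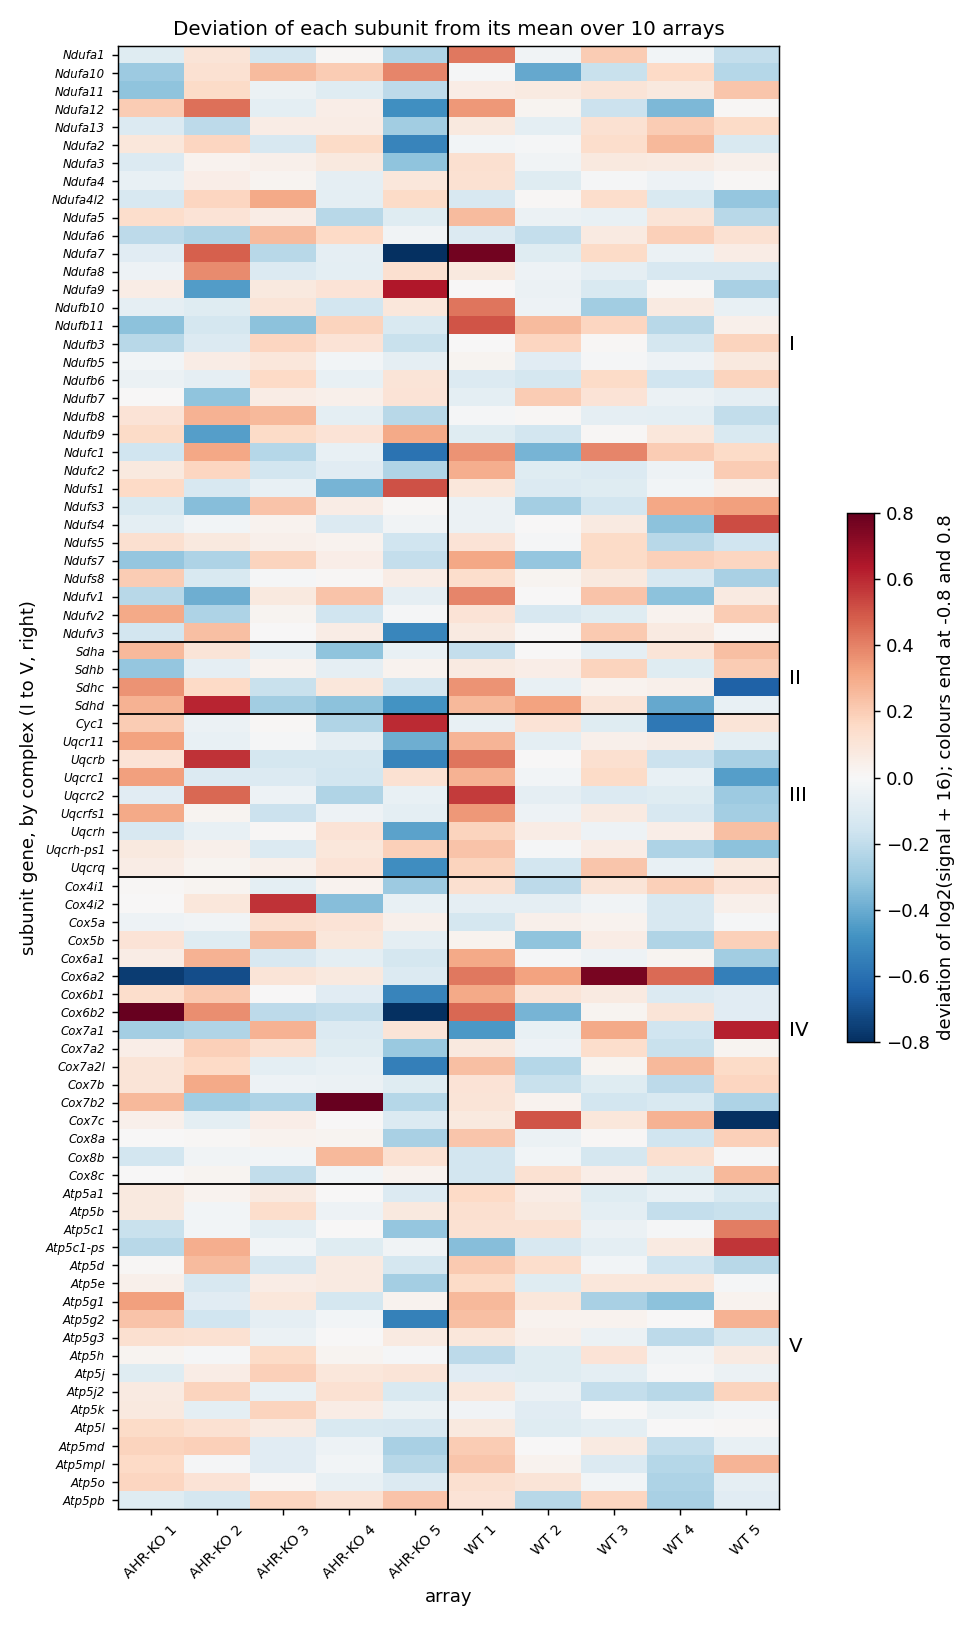
Deviation of each subunit (rows, ordered by complex I to V) from its mean over the 10 arrays, in log2(signal + 16), with AHR-KO arrays on the left and WT arrays on the right; red is above the mean and blue below. AHR-KO replicate 5 holds the lowest value in 26 of the 81 rows and WT replicate 1 the highest in 20.

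The complexes did not follow the same order of arrays. For complex II the score was 0.15, 0.20, -0.12, -0.16 and -0.17 in AHR-KO replicates 1 to 5, against 0.12, 0.08, 0.06, -0.09 and -0.07 in WT replicates 1 to 5. For complex III it was 0.13, 0.09, -0.06, -0.06 and -0.12 in AHR-KO replicates 1 to 5, against 0.27, -0.02, 0.05, -0.14 and -0.14 in WT replicates 1 to 5. In both, AHR-KO replicates 1 and 2 and WT replicate 1 were the 3 highest arrays, and these 3 also had the highest scores of 15 erythroid genes, 1.03, 0.17 and 1.05, and HSC identity scores of 0.14, 0.39 and 0.41. WT replicate 5, at -0.07 in complex II and -0.14 in complex III, had the lowest erythroid score, -0.83, and the highest HSC identity score, 0.56. In complex II AHR-KO replicates 3, 4 and 5 and WT replicate 4 were lower still. Their erythroid scores were 0.0, 0.12, -0.36 and -0.61. In complex IV AHR-KO replicate 5 stood apart at -0.20, while the other 9 arrays were between -0.03 and 0.09, and its HSC identity score was the lowest, -0.59. The part of cell composition in these scores was not tested.

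**Figure D4:**
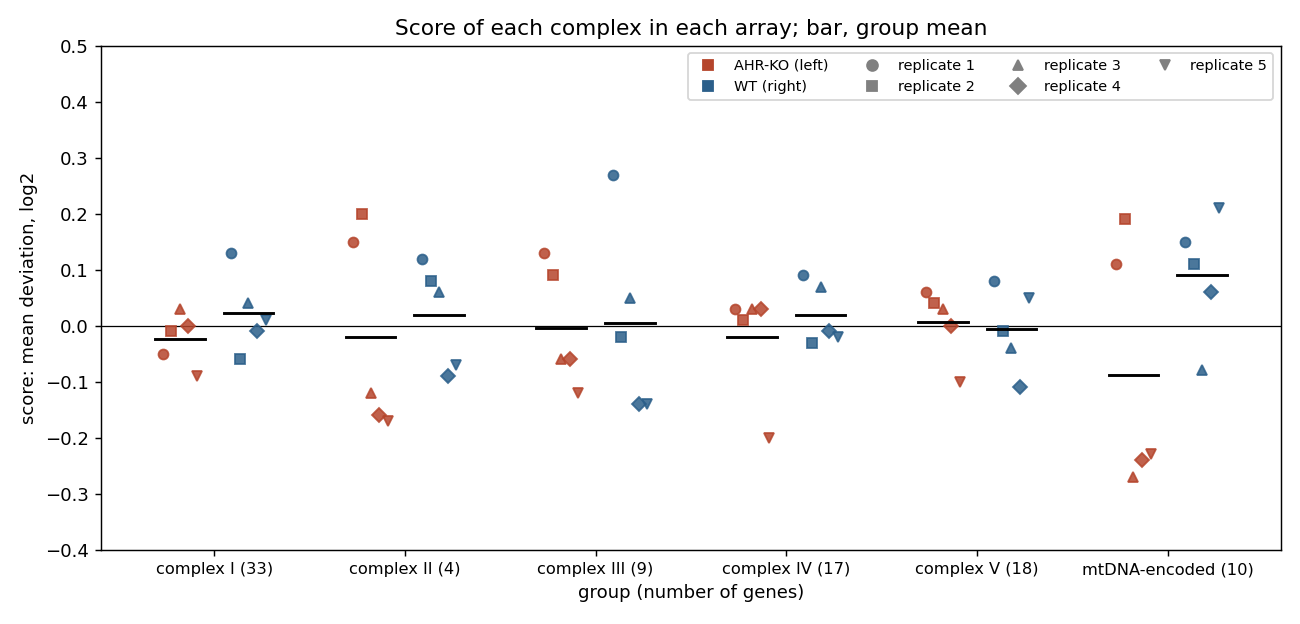
Score of each complex and of the mitochondrial DNA-encoded genes (x axis, with the number of genes) in each array, as mean deviation on the log2 scale (y axis); AHR-KO arrays stand left of WT arrays, marker shapes give the replicate and bars the group means. In complex IV AHR-KO replicate 5 lies at -0.20, and in the mitochondrial DNA-encoded genes AHR-KO replicates 3, 4 and 5 lie between -0.27 and -0.23, below all WT arrays.

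AHR binds DNA at a response element with the core GCGTG, so the promoters of the members were searched for these letters on both strands, together with motifs of 3 factors known to act on OXPHOS genes. The windows are RefSeq promoters of build GRCm38.p6, from 250 bases before to 50 bases after the start, and 64 of the 81 members had at least 1. The AHR core was found in 35 members (54.7%), against 35.2% of the 27025 genes with a window, whether tested here or not. Among tested genes with a window it was in 7108 and absent from 9810, a higher share than 35.2%. The median fold change was -0.029 in the 35 members with the core and -0.001 in the 29 without it. The fold change was above 0 in 14 of the 35 and in 14 of the 29. The NRF1 motif, the letters GCGC, AT and GCGC in direct sequence, of a regulator of respiratory genes, was found in 5 members (7.81%, against 1.07% of all genes), namely Atp5g2, Atp5k, Cox6a1, Ndufa11 and Uqcrc1. The ETS motif CCGGAAG, bound by GABP, was found in 17 (26.6%, against 9.93%), and the YY1 motif AAGATGGC in 9 (14.1%, against 3.19%). These shares of all genes are also of the 27025 with a window. Among tested genes with a window, the NRF1 letters were in 253 and absent from 16665. The ETS letters were in 2152 and absent from 14766, and the YY1 letters were in 618 and absent from 16300. A match is a description of the letters and not evidence of binding.

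The 250 bases before the start are shown for 3 members that had the smallest unadjusted p among members with a motif there in complexes I, II and III. They show where the AHR core lies, and the fold changes of these genes were -0.21, -0.16 and -0.20. By the same rule the members of complexes IV and V were Cox5b and Atp5c1, with 0.11 and -0.24. Whether the core and the fold change go together was not tested. Capitals mark motif letters, and each run is read 5′ to 3′ on the strand of the gene.
Ndufa11, chr17:56717512-56717761, + strand: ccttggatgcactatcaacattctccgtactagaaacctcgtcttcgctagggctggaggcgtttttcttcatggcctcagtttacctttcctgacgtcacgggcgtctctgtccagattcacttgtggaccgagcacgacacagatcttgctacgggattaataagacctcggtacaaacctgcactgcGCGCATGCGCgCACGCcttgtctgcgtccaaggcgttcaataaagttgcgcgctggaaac
Sdhb, chr4:140961021-140961270, + strand: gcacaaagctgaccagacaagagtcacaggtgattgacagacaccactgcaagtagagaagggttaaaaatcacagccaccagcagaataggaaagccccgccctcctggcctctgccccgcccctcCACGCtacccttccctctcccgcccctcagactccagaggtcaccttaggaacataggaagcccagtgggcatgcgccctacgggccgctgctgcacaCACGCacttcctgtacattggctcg
Uqcrh, chr4:116075071-116075320, - strand: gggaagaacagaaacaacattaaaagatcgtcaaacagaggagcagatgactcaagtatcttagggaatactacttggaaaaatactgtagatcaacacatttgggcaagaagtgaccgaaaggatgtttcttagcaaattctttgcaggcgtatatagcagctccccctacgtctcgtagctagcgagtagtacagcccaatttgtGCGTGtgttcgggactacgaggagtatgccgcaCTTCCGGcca
In Ndufa11 the NRF1 motif begins 60 bases before the start and the AHR core, on the other strand as CACGC, 49 bases before it, so they do not overlap. In Sdhb the AHR core stands on the other strand 123 and 25 bases before the start. In Uqcrh it stands on the strand of the gene 43 bases before the start, and the ETS letters, on the other strand as CTTCCGG, 10 bases before it. In the corresponding members of complexes IV and V, Cox5b and Atp5c1 (the first of its windows), the AHR core was found on the other strand, 101 and 14 bases before the start.

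The partners of these subunits that are encoded in mitochondrial DNA were measured on the same arrays. Of that list, 10 genes had a probe set of their own, and COX2, ATP6 and ATP8 shared probe sets with other genes. All 10 had a fold change below 0, from -0.62 for ND3 to -0.03 for COX1, with a median of -0.153. ND3, a subunit of the proton-pumping arm of complex I, was the only one called at an unadjusted p under 0.05, against 3.74% of all genes. It also passed 1.5-fold, and 0.523% of all genes reached both limits.

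ND3 read 3012, 5195, 2685, 3314 and 2646 in AHR-KO replicates 1 to 5, against 5036, 5274, 4856, 4962 and 5013 in WT replicates 1 to 5. AHR-KO replicate 2 lay among the WT arrays, and the other AHR-KO arrays were below all of them. The groups differed by a fold change of -0.62 (SE 0.17, unadjusted p = 0.00346 and adjusted p = 0.998 in limma, exact permutation p = 0.0397). It fell short of 1.5-fold without AHR-KO replicate 3 or 5 (-0.55 in each case). Within the 6 arrays it was -0.81 (unadjusted p = 2.32e-04 in limma), and within the other 4 it was -0.34 (unadjusted p = 0.322).

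The other 9 mitochondrial genes had fold changes of -0.26 to -0.03, and the array sets gave them different values. The median of all 10 was -0.226 within the 6 arrays and -0.007 within the other 4, where 5 of the 10 were above 0. The score of the list was 0.11, 0.19, -0.27, -0.24 and -0.23 in AHR-KO replicates 1 to 5, against 0.15, 0.11, -0.08, 0.06 and 0.21 in WT replicates 1 to 5. AHR-KO replicates 3, 4 and 5 were the 3 lowest arrays, and they also had the 3 highest scores of monocyte, macrophage and dendritic cell genes, 0.48, 0.49 and 0.52, with all other arrays at 0.28 or below. No other marker list had these arrays as its 3 highest. In the neutrophil list AHR-KO replicate 3, at 0.35, was below WT replicate 3, at 0.49. The stroma score was highest in WT replicate 4, at 0.79. The part of cell composition in the result was not tested. These genes lie on the same small circular genome and are not independent of each other.

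**Figure D5:**
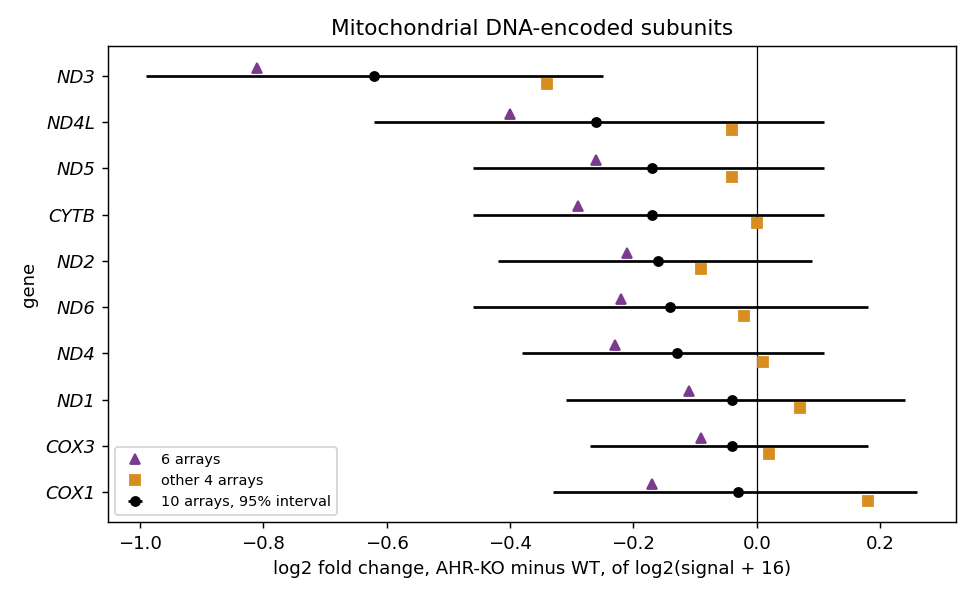
Fold change of 10 mitochondrial DNA-encoded genes (x axis, AHR-KO minus WT in log2(signal + 16)) with its 95% interval over the 10 arrays (circles), within 6 arrays (triangles) and within the other 4 (squares). All 10 circles lie below 0, and the squares lie between -0.34 and 0.18.

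Assembly factors, which insert cofactors and join the subunits, held several single calls. Whether they differ from the subunits in this was not tested. Of 42 measured, 7 had an unadjusted p under 0.05 and 0 passed adjustment, beside 3.74% of all genes, with 23 fold changes above 0, 19 below and a median of 0.023. The calls went in both directions. Ndufaf7, Ecsit, Ndufaf4 and Ndufaf6, which all serve complex I, were higher in AHR-KO, and Ndufaf1, also of complex I, Cox18 and Pet100, both of complex IV, were lower. All of these but Ndufaf4 were named after their values were seen.

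Ndufaf7, a methyltransferase that acts on a complex I core subunit, read 83.8, 92.1, 103, 100.1 and 99.4 in AHR-KO replicates 1 to 5, against 63.8, 70.7, 71.0, 56.3 and 56.9 in WT replicates 1 to 5. All AHR-KO arrays were above all WT arrays. Between the groups the fold change was 0.49 (SE 0.11, unadjusted p = 6.46e-04 and adjusted p = 0.998 in limma), and the exact permutation p was 0.00794, the smallest that 5 against 5 arrays can give. It was 0.51 within the 6 arrays and 0.45 within the other 4.

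Ndufaf4, a complex I assembly factor, was the only one past 1.5-fold. It read 468, 373, 306, 258 and 299 in AHR-KO replicates 1 to 5, against 304, 258, 232, 225 and 91.6 in WT replicates 1 to 5. WT replicate 5 was far below the other arrays, and the groups overlapped. Its fold change was 0.64 (SE 0.27, unadjusted p = 0.0344 in limma, exact permutation p = 0.0317), and without WT replicate 5 it was 0.38 (unadjusted p = 0.0504). The call was also lost without AHR-KO replicate 1 or 2 and by the methods' t-test on log2 values (unadjusted p = 0.0713). Within the 6 arrays Ndufaf4 had 0.25 (unadjusted p = 0.0862 in limma), and within the other 4 it had 1.23 (unadjusted p = 0.0699).

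The other called factors moved by less than 1.5-fold. Ecsit had 0.51 (unadjusted p = 0.0114 in limma), Ndufaf6 had 0.45 (unadjusted p = 0.0172), Ndufaf1 had -0.37 (unadjusted p = 0.00831), Cox18 had -0.33 (unadjusted p = 0.0254) and Pet100 had -0.54 (unadjusted p = 0.0401). Pet100 was lowest in AHR-KO replicate 5, which read 429.6 and without which the fold change was -0.29, while the other AHR-KO arrays read 912 to 1146 and the WT arrays 1146 to 1441. Sco1, a copper chaperone of complex IV, had groups that did not overlap, with 81.3, 71.6, 86.1, 69.4 and 94.1 in AHR-KO replicates 1 to 5, against 17.4, 67.1, 67.4, 69.2 and 65.4 in WT replicates 1 to 5. Its AHR-KO replicate 4 and WT replicate 4 were all but equal, and its unadjusted p was 0.0748.

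The neighbouring steps of respiration are given beside 3.74% of all genes at an unadjusted p under 0.05. Lists this small cannot be told apart from that share. Of 13 genes of coenzyme Q synthesis and cytochrome c, 6 had a fold change above 0 and 7 below, with 0 at an unadjusted p under 0.05, and the smallest p was that of Coq10a, a coenzyme Q binding protein (-0.38, unadjusted p = 0.0708 in limma). Of 18 genes of the TCA cycle and pyruvate entry, 8 were above 0 and 10 below, and Dld, a shared subunit of the 2-oxoacid dehydrogenases, was the only call (0.41, SE 0.16, unadjusted p = 0.0217 in limma). Of 20 genes of mitochondrial biogenesis and mitochondrial DNA upkeep, 10 were above 0 and 10 below with 0 calls, and Tfb2m, a mitochondrial transcription factor, had the smallest p (-0.31, unadjusted p = 0.0855). Of 6 uncoupling and inhibitor genes, 2 were above 0 and 4 below with 0 calls, and Slc25a5, an ADP/ATP carrier, had -0.21 (unadjusted p = 0.383).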

How the data were processed

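RNA of sorted SLAM+ HSCs from 5 AHR-KO and 5 WT mice was hybridised to Affymetrix Mouse Gene 2.0 ST arrays, 1 mouse per array. For each array the authors deposited linear intensity values, 1 for every probe set. Affymetrix Expression Console is named in the submitters' processing notes, with no version. IterPLIER with background subtraction and quantile normalization is what the study's methods give for arrays, without saying that it covers these, and no filter is stated. Quantile normalization removes a shift shared by most genes. The precision is limited by the number of arrays.

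Of 41345 probe sets, 23521 had 1 symbol, 1820 several and 16004 none in the platform annotation. Where a gene had several (1082 genes), the one with the highest mean signal stood for it. Of the members 9 had more than 1, and in 5 of these the fold changes of the probe sets were not of the same sign. AHR-KO and WT were compared over 22180 genes on log2(signal + 16) with limma 3.58.1 in R 4.3.3, without a filter on level, and p-values were adjusted by Benjamini-Hochberg over all genes. Single genes were also tested by exact permutation, two-sided (252 regroupings, smallest p 0.00794). The fit was tested on simulated data. Members, gene lists, tests and alternatives were chosen with earlier results of these data known. Named members are those with the 3 smallest p-values, the largest SD or the highest mean of each complex, core subunits, tissue-restricted forms with their partners and the c subunit genes, and of each other list the genes past 1.5-fold with an unadjusted p under 0.05 or else the one with the smallest p. Alternatives comprised a pseudocount of 1 or 64, repeated normalization, a level filter, all probe sets of a gene or their mean, a block for the replicate number, other tests and weights, folds from linear means and each array left out. The 2 array sets of the first principal component (6 and 4 arrays) were chosen after seeing the data. The replicate numbers were checked as pairs, and no clear pairing was seen, so the main fit does not use them.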

Additional observations from a re-analysis of the deposited data

Results flagged for a closer look

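In groups of 5 arrays, a single array was marked where its gap to the nearest other array was over 0.71 of the range of the group. Of 138 groups tested, 10 held such an array, and chance marks about 1 in 20 groups, so the number itself is no pattern. Values are log2(signal + 16) for genes and mean deviations for scores, and the causes were not tested.

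Among the subunits, Cox8a, the widespread form of subunit 8, was lowest in AHR-KO replicate 5 at 10.87, with the next AHR-KO array at 11.13. Cox8c was lowest in AHR-KO replicate 3 at 5.12, next to 5.30. Cox4i1 was lowest in WT replicate 2 at 10.58, next to 10.90. Ndufa11 was highest in WT replicate 5 at 10.22, next to 10.09. The score of all 81 members was lowest in AHR-KO replicate 5 at -0.12, next to -0.01, and so was the score of complex IV at -0.20, next to 0.01.

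Among the other genes, Pet100 was lowest in AHR-KO replicate 5 at 8.80, next to 9.86. Ndufaf4 was lowest in WT replicate 5 at 6.75, next to 7.91. The mitochondrial gene ND4 was lowest in WT replicate 3 at 12.15, next to 12.36. Slc25a5, an ADP/ATP carrier, was highest in WT replicate 1 at 10.38, next to 9.80.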

How the results depend on the processing

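The count of members at an adjusted p under 0.05 was 0 in every alternative. The count at an unadjusted p under 0.05, 1 of 81, was 0 with a pseudocount of 1, 4 with 64 (Atp5c1, Atp5j, Ndufa11 and Ndufa13), 3 by the methods' t-test on log2 values and 3 on linear signals (Cox6a2 in neither), 2 with array weights, 2 within the 6 arrays (array sets chosen after seeing the data), and 0 to 2 when an array was left out. Cox6a2 passed 1.5-fold together with an unadjusted p under 0.05, as 1 member, with the fold from linear means and without AHR-KO replicate 3, AHR-KO replicate 4 or WT replicate 5, and leaving out an array gave 0 to 1. The cause was not tested. With all 10 arrays 73 members had an interval inside 1.5-fold, against 62 within the 6 arrays and 8 within the other 4. The number was 68 to 74 when an array was left out. The number of arrays and the spread between those kept cannot be told apart. The median of complex I was 0.023 within the 6 arrays and that of complex II was 0.249 within the other 4. The assembly factors at an unadjusted p under 0.05 were 1 within those 4 arrays and 5 to 7 when an array was left out.

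With the replicate number as a block, 1 member was at an unadjusted p under 0.05, 0 passed both limits and 74 had an interval inside 1.5-fold. Deviations of AHR-KO and WT arrays of the same number correlated at 0.35, -0.20, 0.15, 0.21 and -0.12 for replicates 1 to 5. Only AHR-KO replicate 1 correlated best with the WT array of its own number. No clear pairing by number was seen, and so few arrays cannot exclude one. Of 42 named members, 19 changed sign in at least 1 alternative. Of 1084 values of single members under alternatives, 0 turned a called direction round, 12 lost and 16 gained an unadjusted p under 0.05. Another 12 were marked as shifted in value. Only Cox6a2 had a call to lose, so the 12 losses were all of this gene, which kept its call in 14 of 26 alternatives. Repeated quantile normalization and scaling to a common median gave its main p again (unadjusted p = 0.0478 in limma), because the arrays already share their quantiles. The fold from linear means keeps the p-value of the main fit. These alternatives could not have removed the call and are no check of it.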
